A study of Mus musculus with 9 samples.

Results

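The pre-B cell receptor and its proximal signalling proteins were followed here through 10 genes, taken by symbol from both deposited expression tables. They are 10 of the 23279 gene rows, and all 10 were among the 10878 genes tested. Vpreb1, Vpreb2 and Igll1 encode the surrogate light chain, and Vpreb3 a related protein. Cd79a and Cd79b encode the signalling chains Ig-alpha and Ig-beta, Blnk an adaptor, and Syk, Btk and Lyn tyrosine kinases.

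The pre-B cell receptor is the checkpoint receptor of early B cell development. A rearranged immunoglobulin heavy chain pairs with a surrogate light chain, made of a VpreB protein and the lambda5 protein encoded by Igll1, because no light chain gene has been joined yet. Ig-alpha and Ig-beta carry the signal inward: Lyn and related kinases phosphorylate them, Syk docks on them, and BLNK then assembles Btk and phospholipase C gamma. Signalling through this receptor drives a burst of division and then light chain rearrangement, and the surrogate light chain genes are switched off again as cells mature.

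The libraries came from bone marrow of mice 6 to 8 weeks old, grown for 7 days as B cell colonies in methylcellulose with interleukin-7, with the colonies of a culture pooled. RNA of an equal number of cells per sample received 1 µl of ERCC spike-in mix, diluted 1 in 1000, and polyadenylated RNA was sequenced. The 9 libraries form 3 groups of 3: wild-type littermates (WT), Hmgn1-overexpressing mice on C57BL/6 (HMGN1_OE), and Ts1Rhr mice from an FVB × C57BL/6 F1 background. Ts1Rhr mice carry an additional copy of a segment of mouse chromosome 16 running from Cbr1 to Fam3b, which holds Hmgn1, the gene of a nucleosome-binding protein. For the Hmgn1 transgene no promoter or species is named, and for the wild-type littermates no strain. An effect of genotype and one of strain therefore cannot be told apart. The labels number biological replicates without naming animals, so p-values cover only how these samples vary, which may be technical.

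Levels below are FPKM (fragments scaled to transcript length and library size), so that levels of different genes can be compared. The authors deposited them raw and after a further normalisation. Normalised FPKM are meant unless raw FPKM are named. Values are given in the order of replicates 1, 2 and 3 and as mean ± SD with n = 3, and a gene is called changed at an adjusted p under 0.05 (limma, Benjamini-Hochberg over all tested genes). Sequencing depth is unknown, since the files hold no counts. In bulk RNA, fewer cells of a type and less RNA per cell cannot be told apart.

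Markers of early B cells were present in every library: Pax5 lay between 57.4 and 148 raw FPKM, Il7r between 117 and 171, and Dntt between 44.2 and 199. The mature B cell markers Cr2 and Fcer2a and the T cell marker Cd3e stayed under 1 raw FPKM. Cr2 and Fcer2a were the 2 of 10 markers of later B stages to do so. Ms4a1, another of the 10, lay between 20.2 and 48.3 raw FPKM. Myeloid transcripts were abundant, with Lyz2, the lysozyme gene of macrophages and granulocytes, at 11934 to 30708 raw FPKM, so the cultures were not B lineage cells alone. Hmgn1 itself stood at 58.5 to 67.3 raw FPKM in WT, 71.9 to 77.2 in HMGN1_OE and 125 to 127 in Ts1Rhr. Ts1Rhr replicate 3 was the 1 library with Y-linked transcripts above traces (Ddx3y at 41.8 raw FPKM) and almost no Xist (0.443). Elsewhere Ddx3y reached at most 0.0642 raw FPKM and Eif2s3y, also Y-linked, at most 0.187. WT replicate 1 held 10510 raw FPKM of ribosomal RNA (Rn45s), and WT replicate 3 had the lowest median of all normalised libraries. WT replicate 3 was the lowest WT library for all 10 genes on normalised FPKM and for 2 on raw FPKM, where WT replicate 1 was the lowest for 7.

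The sequences of Vpreb1 and Vpreb2 come first because they limit how far the 2 genes can be read apart. Their coding sequences in the GENCODE annotation of GRCm38 are both 426 bases long, align without a gap and differ at 9 bases, an identity of 97.9%. The longest run they share is 196 bases, and 51.9% of all 36-base words of the Vpreb2 coding sequence also occur in Vpreb1. Reads from such stretches cannot be assigned to 1 of the genes, so their separate levels are uncertain. The stretch below, coding bases 328 to 387 in exon 2, holds 5 of the 9 differences, shown in capitals. It lies at chr16:16868638-16868697 on the minus strand for Vpreb1 and at chr16:17980979-17981038 on the plus strand for Vpreb2 (GRCm38).
Vpreb1 coding: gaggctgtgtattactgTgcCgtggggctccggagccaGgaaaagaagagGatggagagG
Vpreb2 coding: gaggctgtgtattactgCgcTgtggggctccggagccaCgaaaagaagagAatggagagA

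The windows upstream of the surrogate light chain genes are shown because these genes differed from wild type in the same direction, and that of Vpreb3 for comparison with them. All sequences are RefSeq's (GRCm38.p6), read 5′ to 3′ on the gene's strand, cut where the first coding transcript of GENCODE begins. The Vpreb1 window is chr16:16869256-16869505 (minus strand), the Vpreb2 window chr16:17980315-17980427 (plus), the Igll1 window chr16:16863986-16864235 (minus) and the Vpreb3 window chr10:75948050-75948299 (plus). Capitals mark matches to motifs of factors that act on early B cell genes: CAGGTG for the E boxes of E2A (CACCTG on the other strand), CCCNNGGG for the EBF1 core, ATTTGCAT for the octamer (ATGCAAAT on the other strand) and GGAAGT for ETS factors (ACTTCC on the other strand).
Vpreb1 upstream: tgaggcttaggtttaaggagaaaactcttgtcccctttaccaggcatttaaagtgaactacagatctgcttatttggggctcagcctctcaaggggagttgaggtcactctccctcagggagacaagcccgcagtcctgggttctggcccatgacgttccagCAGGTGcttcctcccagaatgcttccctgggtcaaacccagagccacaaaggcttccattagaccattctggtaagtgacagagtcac
Vpreb2 upstream: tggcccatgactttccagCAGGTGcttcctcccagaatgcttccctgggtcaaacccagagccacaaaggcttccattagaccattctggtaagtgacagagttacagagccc
Igll1 upstream: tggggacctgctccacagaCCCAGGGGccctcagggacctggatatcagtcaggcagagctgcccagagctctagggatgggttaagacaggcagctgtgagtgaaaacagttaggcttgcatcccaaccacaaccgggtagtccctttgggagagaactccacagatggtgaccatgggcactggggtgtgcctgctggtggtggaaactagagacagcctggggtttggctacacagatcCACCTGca
Vpreb3 upstream: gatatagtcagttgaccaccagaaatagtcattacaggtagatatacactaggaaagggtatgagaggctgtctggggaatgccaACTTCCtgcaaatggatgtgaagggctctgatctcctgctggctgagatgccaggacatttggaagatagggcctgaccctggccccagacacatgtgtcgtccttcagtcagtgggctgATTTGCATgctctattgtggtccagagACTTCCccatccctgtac
The 300-base windows of Vpreb1 and Vpreb2 could be aligned over 156 bases with 153 identical, so these genes are near copies outside their coding parts too. The CAGGTG E box occurred in the windows of Vpreb1, Vpreb2, Igll1, Cd79a, Blnk and Syk, 6 of the 8 members with a window in the table, and in 20.2% of all 32851 windows of that length. The octamer occurred in Vpreb3 and Blnk (1.74% of all windows), the ETS motif in Vpreb3, Cd79a, Blnk and Syk (23.8%) and the EBF1 core in Igll1 alone (13.7%). Motifs were searched on both strands and did not overlap one another in the printed parts. Cd79b and Lyn had no window. A match is a string of letters and was not tested as a binding site.

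All 10 genes were well expressed. Vpreb3 was the most abundant of the 10 in every library, between 501 and 1533 FPKM, at the 99.4th to 99.8th percentile of all tested genes. Btk was the least abundant in every library, between 27.8 and 48.2 FPKM. The other 8 lay between 38.2 and 264 FPKM, with overlapping ranges, so their order changed from library to library: Vpreb1 ranked between the 2nd and the 5th and Cd79b between the 2nd and the 9th. Igll1 ranked from the 7th to the 9th.

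**Figure D1:**
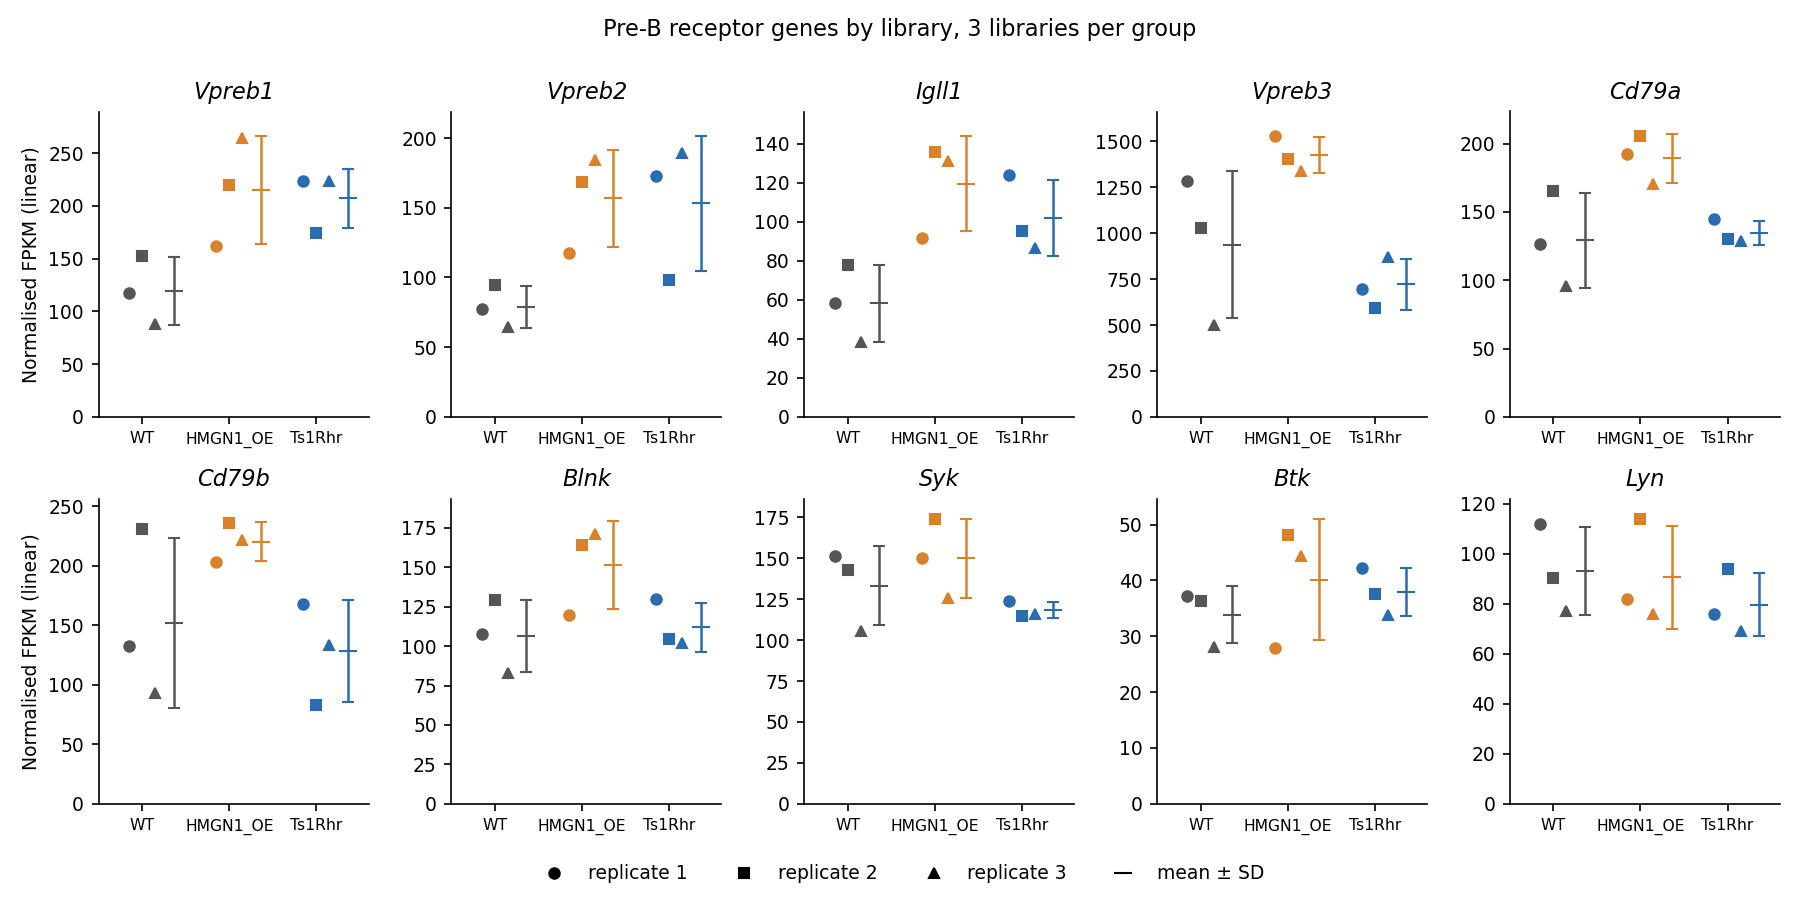
Normalised FPKM (linear axis from 0) of the 10 genes in each of the 9 libraries, with 1 symbol per replicate number and the group mean ± SD (n = 3) beside them. Vpreb1, Vpreb2 and Igll1 were higher in all libraries of both mutant groups than in any WT library, while Vpreb3 was higher without overlap in HMGN1_OE alone, at 1340 to 1533 FPKM.

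The surrogate light chain genes were higher in both mutant groups than in wild type, by 1.76-fold to 2.11-fold, and in every mutant library. Vpreb1, the major VpreB gene, measured 117, 153 and 88.4 FPKM in WT, 161, 220 and 264 in HMGN1_OE and 223, 174 and 223 in Ts1Rhr. The lowest mutant library thus lay above the highest WT library. The group means were 120 ± 32.3, 215 ± 51.4 and 207 ± 28.2 FPKM.

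Vpreb2, its near copy, measured 77.4, 94.8 and 64.4 FPKM in WT, 118, 169 and 184 in HMGN1_OE and 173, 98.3 and 189 in Ts1Rhr. Again no mutant library overlapped WT, although Ts1Rhr replicate 2 was only just above WT replicate 2. Igll1, the lambda5 gene, measured 58.5, 77.9 and 38.2 FPKM in WT, 91.6, 136 and 131 in HMGN1_OE and 124, 95.1 and 86.7 in Ts1Rhr. All mutant values were above the highest WT value, and the means were 58.2 ± 19.8, 120 ± 24.3 and 102 ± 19.6 FPKM.

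In Ts1Rhr against WT the log2 fold change was 0.82 for Vpreb1 (95% interval 0.20 to 1.44), 0.92 for Vpreb2 (0.28 to 1.56) and 0.85 for Igll1 (0.23 to 1.47). On normalised FPKM none of them was called after adjustment over all genes (limma, adjusted p = 0.160, 0.133 and 0.144). On that scale 0 of the 10 members were called, where 0.57% of all tested genes were. An unadjusted p under 0.05 was found for 3 of the 10 and for 19.5% of all tested genes (2119). The surrogate light chain genes were the 3 members whose Ts1Rhr libraries all lay above WT, where 21.7% of all tested genes did so.

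On raw FPKM the same 3 genes passed the test in Ts1Rhr and rose there. The raw values of Vpreb1 were 90.4, 139 and 112 in WT against 233, 181 and 244 in Ts1Rhr, a log2 fold change of 0.96 (limma, adjusted p = 0.0374). Vpreb2 rose by 1.02 on the log2 scale (limma, adjusted p = 0.0448) and Igll1 by 0.93 (limma, adjusted p = 0.0325). These were 3 of 10 members, against 8.85% of all tested genes called on raw FPKM. At an unadjusted p under 0.05 there were also 3 of 10, where 30.9% of all tested genes were. The members were chosen with earlier results of these data known, and Vpreb1 and Vpreb2 share sequence, so these counts are no test. Btk joined Vpreb1, Vpreb2 and Igll1 as the 4th member without overlap, against 19.1% of all tested genes higher without overlap. The calls were not all kept when a WT or Ts1Rhr library was left out, which also leaves fewer libraries for the test. Without WT replicate 1 or 3 or any 1 of the Ts1Rhr libraries 0 of the 10 were called, and 2 were without WT replicate 2. The log2 fold changes of Vpreb1, Vpreb2 and Igll1 on raw FPKM stayed between 0.80 and 1.33 when any 1 library was left out. Without Ts1Rhr replicate 3, the library high in Y-linked transcripts, they were 0.87 for Vpreb1, 0.81 for Vpreb2 and 1.00 for Igll1.

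With Hmgn1 overexpression the differences from WT were of similar size, with log2 fold changes of 0.86 for Vpreb1 (95% interval 0.23 to 1.48), 0.98 for Vpreb2 (0.35 to 1.62) and 1.08 for Igll1 (0.46 to 1.69). None was called (limma, adjusted p = 0.312, 0.287 and 0.250). Over all 10 members 0 were called on normalised FPKM, where 0.0919% of all tested genes were, and 0 on raw FPKM, where 0.0368% were. At an unadjusted p under 0.05 there were 4 members on normalised and 5 on raw FPKM, where 11.7% and 14.6% of all tested genes were. The raw log2 fold change of Igll1 was 0.92, nearly equal to its value in Ts1Rhr, yet its adjusted p was 0.194. Both comparisons share the WT libraries.

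The mutant groups themselves could not be separated for these genes. Ts1Rhr minus HMGN1_OE was -0.04 for Vpreb1 (95% interval -0.66 to 0.59), -0.06 for Vpreb2 (-0.70 to 0.58) and -0.22 for Igll1 (-0.84 to 0.39) on the log2 scale, and on raw FPKM it was 0.24, 0.19 and 0.0058. The sign thus turned with the table, and the intervals leave room for a difference in either direction. In this comparison 0% of all tested genes were called in either table.

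**Figure D2:**
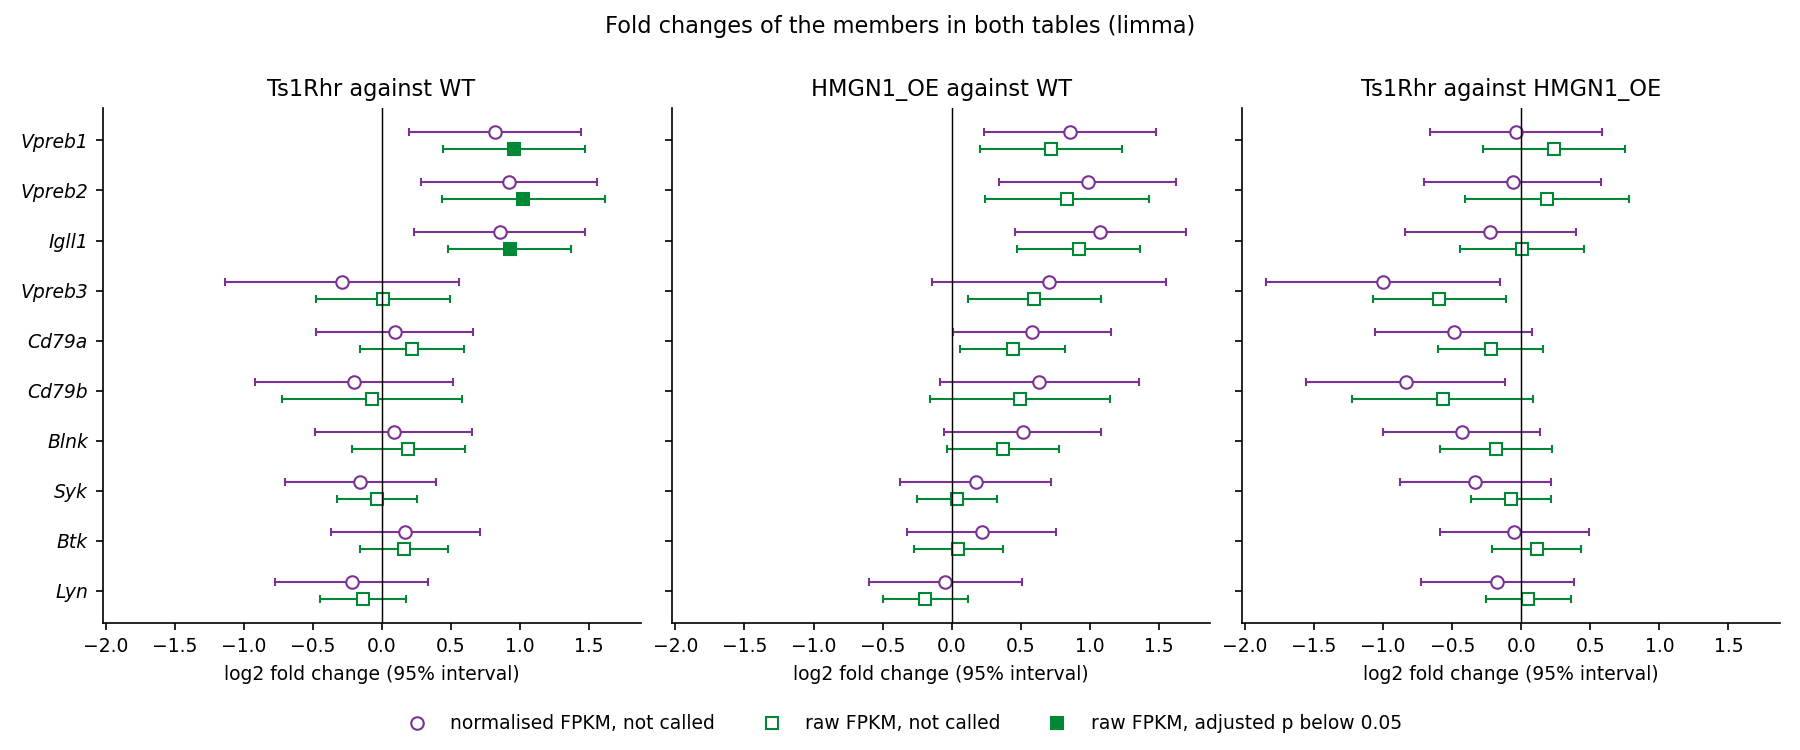
Log2 fold changes of the 10 genes with 95% intervals in the 3 comparisons, on normalised (circles) and raw FPKM (squares); filled symbols have an adjusted p below 0.05. The filled symbols are Vpreb1, Vpreb2 and Igll1 on raw FPKM in Ts1Rhr against WT, at 0.93 to 1.02.

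Vpreb3 encodes a VpreB-like protein that binds immunoglobulin chains inside the cell and is not part of the surrogate light chain. It measured 1283, 1031 and 501 FPKM in WT, 1533, 1405 and 1340 in HMGN1_OE and 699, 594 and 872 in Ts1Rhr. All HMGN1_OE libraries lay above WT and all Ts1Rhr libraries lay inside the WT range. Its log2 fold change was 0.71 in HMGN1_OE (95% interval -0.14 to 1.56; limma, adjusted p = 0.498) and -0.29 in Ts1Rhr (-1.14 to 0.56; limma, adjusted p = 0.715).

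Between the mutants Vpreb3 was lower in Ts1Rhr by 1.00 on the log2 scale (95% interval -1.85 to -0.15), without overlap but not called (limma, adjusted p = 0.988). On raw FPKM that difference was -0.59, again without overlap (limma, adjusted p = 0.541), and the Ts1Rhr value against WT was 0.0064. WT replicate 3 weighed on these values: without it the normalised log2 fold changes were 0.31 in HMGN1_OE and -0.69 in Ts1Rhr.

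The genes of the signalling chains overlapped with WT in Ts1Rhr and had higher means in HMGN1_OE without passing the test. Cd79a, which encodes Ig-alpha, measured 126, 165 and 96.1 FPKM in WT, 192, 206 and 170 in HMGN1_OE and 145, 130 and 129 in Ts1Rhr. Every HMGN1_OE library lay above all others, while WT and Ts1Rhr overlapped. Its log2 fold change was 0.58 in HMGN1_OE (95% interval 0.01 to 1.15; limma, adjusted p = 0.415) and 0.09 in Ts1Rhr (-0.48 to 0.66; limma, adjusted p = 0.878).

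Cd79b, which encodes Ig-beta, measured 132, 231 and 92.7 FPKM in WT, 203, 235 and 222 in HMGN1_OE and 168, 82.8 and 134 in Ts1Rhr. WT replicate 2 was as high as the HMGN1_OE libraries, so those groups overlapped. The log2 fold change was 0.63 in HMGN1_OE (limma, adjusted p = 0.476) and -0.20 in Ts1Rhr (limma, adjusted p = 0.771). Its sign in Ts1Rhr rested on single libraries, being 0.15 without WT replicate 2 and 0.0825 without Ts1Rhr replicate 2.

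Over the 10 members, 5 lay above WT without overlap in HMGN1_OE (Vpreb1, Vpreb2, Igll1, Vpreb3 and Cd79a), where 16.6% of all tested genes did. On raw FPKM 4 did, without Cd79a, against 9.81% of all tested genes. Between the mutants, Vpreb3, Cd79a, Cd79b and Syk were lower in Ts1Rhr without overlap, 4 of 10 against 6.6% of all tested genes. On raw FPKM Vpreb3 was the 1 member to do so, against 5.99%. The normalised HMGN1_OE values carry a shift of all genes, with a median log2 fold change over all tested genes of 0.21 against WT and 0.01 on raw FPKM. Beside it the median of the 10 members was 0.61, and on raw FPKM 0.47. In Ts1Rhr the median of the members was 0.09 against 0.12 over all tested genes, and on raw FPKM 0.18 against 0.01.

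Blnk, the adaptor that links Syk to its targets, measured 108, 129 and 83.2 FPKM in WT, 120, 164 and 171 in HMGN1_OE and 130, 104 and 102 in Ts1Rhr. All groups overlapped, with HMGN1_OE highest on average. The log2 fold change was 0.51 in HMGN1_OE (95% interval -0.05 to 1.08; limma, adjusted p = 0.466) and 0.08 in Ts1Rhr (-0.48 to 0.65; limma, adjusted p = 0.889).

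The kinase genes had normalised log2 fold changes between -0.22 and 0.22 against WT in both mutant groups. Syk, which docks on phosphorylated Ig-alpha and Ig-beta, measured 151, 143 and 106 FPKM in WT, 150, 174 and 126 in HMGN1_OE and 124, 115 and 116 in Ts1Rhr. On raw FPKM its 9 values spanned only 117 to 146, with log2 fold changes of 0.04 in HMGN1_OE (95% interval -0.25 to 0.33) and -0.04 in Ts1Rhr (-0.33 to 0.25). As folds, these raw intervals run from 0.840 to 1.25 and from 0.798 to 1.19.

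Btk, the X-linked kinase that activates phospholipase C gamma, measured 37.2, 36.3 and 28.0 FPKM in WT, 27.8, 48.2 and 44.3 in HMGN1_OE and 42.3, 37.6 and 33.7 in Ts1Rhr. The groups overlapped, and the log2 fold change was 0.17 in Ts1Rhr (95% interval -0.37 to 0.71) and 0.22 in HMGN1_OE (-0.32 to 0.76). On raw FPKM the Ts1Rhr libraries, at 39.7, 37.9 and 36.6, all lay above WT, at 32.1, 35.7 and 34.5, by 0.16 on the log2 scale (limma, adjusted p = 0.484). Ts1Rhr replicate 3, the library high in Y-linked transcripts, was the lowest of its group, and without it the raw value was 0.19.

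Lyn, the Src family kinase that starts the signal and also restrains it through inhibitory receptors, measured 112, 90.2 and 77.0 FPKM in WT, 81.8, 114 and 75.7 in HMGN1_OE and 75.9, 93.8 and 69.2 in Ts1Rhr. Its log2 fold change was -0.22 in Ts1Rhr (95% interval -0.77 to 0.33) and -0.05 in HMGN1_OE (-0.60 to 0.51). On raw FPKM all HMGN1_OE libraries, at 73.6 to 82.1, lay below WT, at 84.6 to 97.0 (log2 fold change -0.19; limma, adjusted p = 0.535). Lyn, Syk and Btk are also transcribed in myeloid cells, whose markers differed between the groups as given below.

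Ratios between 2 genes of 1 library are free of a single factor that scales the whole library. The deposited normalisation is not such a factor, so ratios of normalised FPKM still carry it: Vpreb3 over Vpreb1 in WT replicate 1 was 10.9 on normalised and 9.59 on raw FPKM. Ratios are given as values with no test. Vpreb1 over Cd79a was 0.930, 0.925 and 0.920 in the WT libraries, 0.840, 1.07 and 1.55 in HMGN1_OE and 1.54, 1.34 and 1.74 in Ts1Rhr. The WT libraries thus held both transcripts in nearly 1 proportion, and all Ts1Rhr libraries were above them. HMGN1_OE spread across both, with replicate 1 below WT and replicate 3 inside the Ts1Rhr range.

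Igll1 over Cd79a was 0.464, 0.471 and 0.398 in WT, 0.477, 0.661 and 0.771 in HMGN1_OE and 0.857, 0.729 and 0.674 in Ts1Rhr, with both mutant groups above WT. Vpreb3 over Vpreb1 was 10.9, 6.75 and 5.67 in WT, 9.49, 6.39 and 5.08 in HMGN1_OE and 3.13, 3.40 and 3.90 in Ts1Rhr. Ts1Rhr lay below every library of the other groups. On raw FPKM the groups stood apart in the same way for these 3 ratios. Vpreb1 over Igll1 (1.62 to 2.58) and Vpreb1 over Vpreb2 (1.18 to 1.77) overlapped between all groups.

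**Figure D3:**
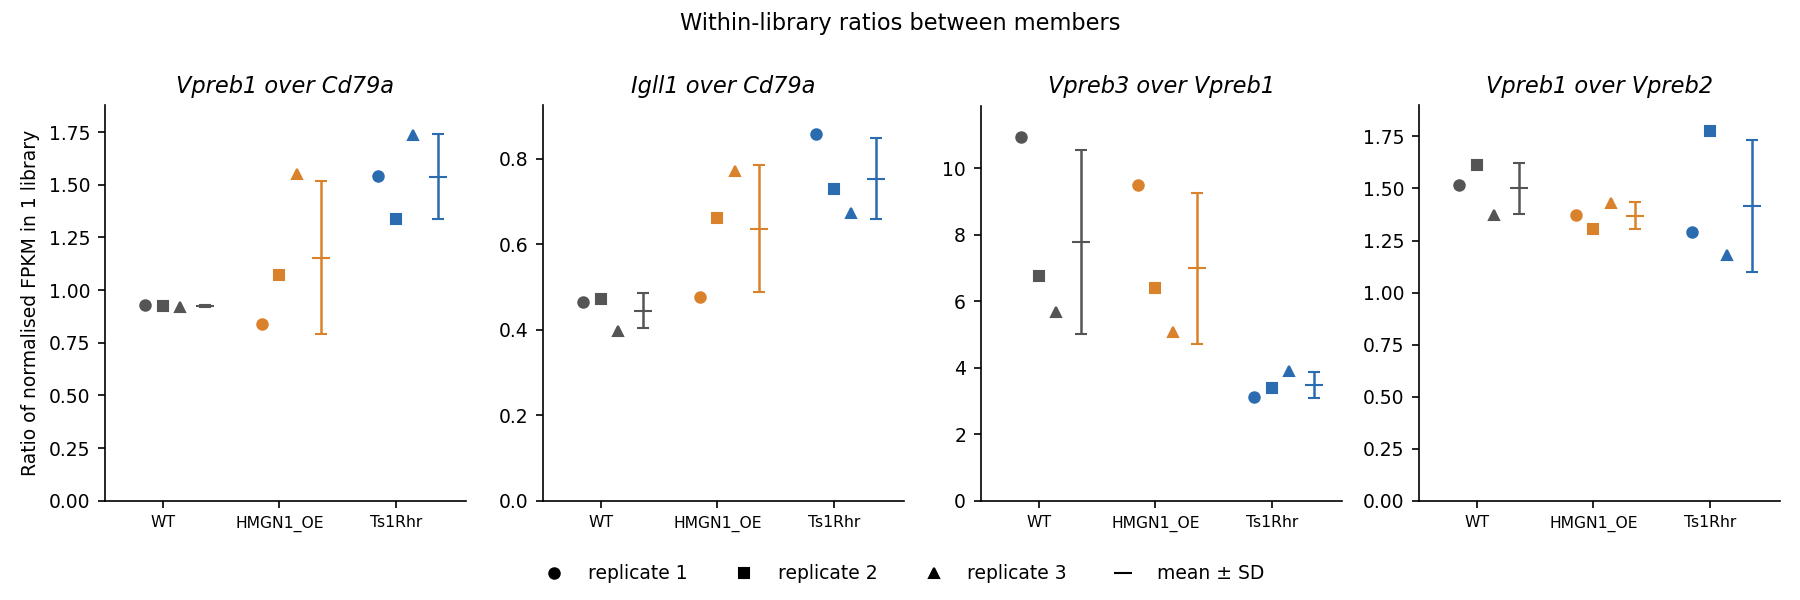
Ratios of normalised FPKM of 2 genes within each library (linear axes from 0), by group, with mean ± SD (n = 3). Vpreb1 over Cd79a lies at 0.920 to 0.930 in WT and at 1.34 to 1.74 in Ts1Rhr, and Vpreb3 over Vpreb1 at 3.13 to 3.90 in Ts1Rhr.

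Each member was also set against other transcripts of early B cells in its own library, the mean log2 level of Pax5, Ebf1, Pou2af1 and Fcrla, a set of 4 genes chosen after seeing the data. Pax5, Ebf1 and Pou2af1 encode B lineage transcription factors and a coactivator, and Fcrla an Fc receptor-like protein of B cells. Their mean was itself above WT by 0.45 in Ts1Rhr and 0.44 in HMGN1_OE on the log2 scale. Fcrla hardly differed, with mean log2 levels of 5.20 in WT, 5.18 in Ts1Rhr and 5.24 in HMGN1_OE. The median log2 fold change of all tested genes was 0.12 in Ts1Rhr and 0.21 in HMGN1_OE. A gene at that median therefore lies lower than WT once the reference is subtracted. How many of all tested genes stand apart from WT on that scale was not counted.

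Relative to these 4 genes the differences of the surrogate light chain genes from WT were smaller. In Ts1Rhr they were 0.37 for Vpreb1, 0.48 for Vpreb2 and 0.41 for Igll1, against 0.82, 0.92 and 0.85 without the reference, and Vpreb2 and Igll1 then overlapped with WT. In HMGN1_OE they were 0.41, 0.54 and 0.63, with overlap for Vpreb1 and Vpreb2. On raw FPKM Vpreb2 in HMGN1_OE was at 0.55 without overlap. The remaining members lay lower than in WT in Ts1Rhr on this scale, as a gene at the median of all tested genes would. Cd79a, Blnk and Syk did so without overlap, at -0.35, -0.36 and -0.60, and Vpreb3, Cd79b, Btk and Lyn with overlap, at -0.74, -0.65, -0.28 and -0.66. On raw FPKM Btk was at -0.35 without overlap. None passed adjustment over 30 tests: the exact two-sided permutation test cannot go below 0.1 for 3 libraries against 3. The lowest adjusted exact permutation p was 0.333, and 0.25 on raw FPKM.

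The wider pathway was described with a list of 74 genes downstream of or beside the receptor, of which 72 were in the tables and 71 tested. The rows of the heavy chain gene Ighm and of the inhibitory receptor gene Pirb were not found by symbol. In Ts1Rhr 41 of the 71 were above WT and in HMGN1_OE 53 were, where 59.9% and 72.7% of all tested genes were. On normalised FPKM 0 of the 71 were called in either group (limma). At an unadjusted p under 0.05 there were 11 of 71 in Ts1Rhr and 8 of 71 in HMGN1_OE, where 19.5% and 11.7% of all tested genes were. Their median log2 fold change was 0.10 in Ts1Rhr and 0.25 in HMGN1_OE, close to the 0.12 and 0.21 over all tested genes. On raw FPKM 4 were called higher and 1 lower in Ts1Rhr, 7.04% of the 71 against 8.85% of all tested genes. The list thus held no more called genes than the background. In HMGN1_OE 0 were called on raw FPKM.

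The genes called higher on raw FPKM in Ts1Rhr were Plcg1, Rag2, Ccnd2 and Ccnd3. Plcg1, a phospholipase C gamma gene, stood at 16.5 ± 3.75 FPKM in WT and 31.0 ± 3.15 in Ts1Rhr (log2 fold change 0.93; limma, adjusted p = 0.105, and 0.0374 on raw FPKM). Rag2, a subunit of the recombinase that joins immunoglobulin segments, stood at 7.22 ± 1.16 and 15.9 ± 3.71 FPKM (1.13; limma, adjusted p = 0.0565, and 0.0309 on raw FPKM). Its partner Rag1 had a log2 fold change of 0.08 (limma, adjusted p = 0.878).

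Ccnd2 and Ccnd3 encode D-type cyclins of the cell cycle, and Ccnd3 is the one required in pre-B cells. Ccnd2 stood at 21.3 ± 4.63 FPKM in WT and 37.3 ± 6.21 in Ts1Rhr (limma, adjusted p = 0.117, and 0.0466 on raw FPKM), Ccnd3 at 113 ± 31.1 and 163 ± 20.8 (0.277, and 0.0406 on raw FPKM). In HMGN1_OE the log2 fold changes of Plcg1, Rag2, Ccnd2 and Ccnd3 were 0.65, 0.94, 0.62 and 0.77, none called. The gene called lower on raw FPKM in Ts1Rhr was Sh3bp2, an adaptor gene, which went from 15.9 ± 1.06 to 9.47 ± 1.10 raw FPKM (limma, adjusted p = 0.0362).

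Within the parts of the list, 14 of 17 tested enzymes, 14 of 20 nuclear factors and targets and 4 of 7 kinases were above WT in Ts1Rhr, against 5 of 14 adaptors, 2 of 7 inhibitory receptors and phosphatases and 2 of 5 genes of the NF-kappaB arm. Of all tested genes 59.9% were above WT, and these counts were not tested. Among the genes with the largest fold changes were several that are abundant in myeloid cells. The adaptor genes Lat2 and Dok2 were at -0.70 and -0.69 (log2), and Ptpn6, the phosphatase gene of the inhibitory receptors, was at -0.53. Lgals1, whose product galectin-1 is a stromal ligand of the pre-B cell receptor, was at -1.06 (limma, adjusted p = 0.173). Itpr1, Rel, Ptpn22 and Fyn were at 0.58, 0.47, 0.69 and 0.42, and Bcl10 and Egr1 at -0.32 and -0.89, with 0 of these called.

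Markers of other cells moved with the groups. All 20 tested myeloid markers were lower in Ts1Rhr than in WT and 19 of 20 in HMGN1_OE. On normalised FPKM 0 of the 20 were called in either group, and on raw FPKM 5 were in Ts1Rhr and 0 in HMGN1_OE. Summed over 23 genes in the table the myeloid markers gave 22531 to 34134 raw FPKM in WT. HMGN1_OE gave 13183 to 27621 and Ts1Rhr 14724 to 16966, so Ts1Rhr did not overlap with WT. Lyz2 dominates such a sum: on normalised FPKM its WT mean was 32708, where the mean sum was 35814. The 4 tested stromal markers were all lower than WT in both mutant groups in both tables. In Ts1Rhr 4 were called in both tables, and in HMGN1_OE 3 were on normalised and 1, Sparc, on raw FPKM. Summed over the 6 in the table they gave 54.5 to 89.4 raw FPKM in WT, 3.06 to 11.4 in HMGN1_OE and 4.20 to 12.4 in Ts1Rhr. The 4 plasma cell markers were all lower in Ts1Rhr than in WT. Among them Igj, the gene of the immunoglobulin joining chain, fell in both mutant groups in both tables, from 23.0 ± 8.44 FPKM in WT to 2.32 ± 1.49 in HMGN1_OE and 5.09 ± 2.59 in Ts1Rhr (limma, adjusted p = 0.00646 and 0.0330). Pf4, a platelet factor gene of megakaryocytes, fell in Ts1Rhr on raw FPKM (limma, adjusted p = 0.0456, and 0.139 on normalised FPKM). The part of these cells in the differences of the receptor genes was not tested.

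Of the 12 early B lineage markers, 10 were higher than WT in each mutant group. Of all tested genes, 59.9% were higher in Ts1Rhr and 72.7% in HMGN1_OE. Kit, the stem cell factor receptor gene, and Spn, which encodes CD43, rose in Ts1Rhr (limma, adjusted p = 0.0151 and 0.0351). Dntt, the terminal transferase gene of pro-B cells, was at 1.25 and 1.49 (log2) in Ts1Rhr and HMGN1_OE (limma, adjusted p = 0.0565 and 0.0602). On raw FPKM 5 of the 12 were called higher in Ts1Rhr, Dntt among them, and 0 in HMGN1_OE. Il7r and Cd93 went the other way, with lower mean log2 levels than WT in both mutant groups, and were not called. Il7r stood at 7.39 in WT, 6.98 in Ts1Rhr and 7.21 in HMGN1_OE, and Cd93 at 7.82, 7.39 and 7.81. The 8 tested markers of later B stages had a median of -0.09 in Ts1Rhr and 0.20 in HMGN1_OE, with 0 called on normalised FPKM. In Ts1Rhr 4 of these 8 were higher than WT, and 1, Il2ra, was called on raw FPKM. Il2ra, which encodes the CD25 of pre-B cells, was at 0.94 in Ts1Rhr (limma, adjusted p = 0.0704, and 0.0432 on raw FPKM). Cd74, H2-Aa, Ms4a1 and Cd2 were lower there. Cd74 went from 255 ± 62.8 FPKM in WT to 142 ± 29.4 in Ts1Rhr, and Ms4a1 from 36.8 ± 4.37 to 26.3 ± 5.62.

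Vpreb1, Vpreb2 and Igll1 lie on chromosome 16, the chromosome of the segment that Ts1Rhr mice carry in an additional copy, but outside it. By RefSeq order (GRCm38.p6, used for order and chromosomes only, since the files use mm9), 73 tested genes of the chromosome lie before Igll1. Igll1 and Vpreb1 are next to each other, 21 tested genes separate Vpreb1 from Vpreb2, and 224 separate Vpreb2 from the first tested gene of the segment. The other members lie on chromosomes 10 (Vpreb3), 7 (Cd79a), 11 (Cd79b), 19 (Blnk), 13 (Syk), X (Btk) and 4 (Lyn).

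In Ts1Rhr the 325 tested chromosome 16 genes outside the segment had a median log2 fold change of 0.12, equal to that of all tested genes, with an interquartile range of -0.18 to 0.44. The 16 inside it had a median of 0.59. Igll1, Vpreb1 and Vpreb2, at 0.82 to 0.92, thus lay above the upper quartile of the chromosome outside the segment. In HMGN1_OE the median outside the segment was 0.21 and inside it 0.10.

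The nearest tested neighbours of the surrogate light chain genes varied. Top3b, a topoisomerase gene that follows Igll1 and Vpreb1, was at 0.73 in Ts1Rhr and 0.84 in HMGN1_OE (limma, adjusted p = 0.161 and 0.288), and Yars2, a mitochondrial tRNA synthetase gene before them, at 0.57 and 0.67. Fgd4 was at -0.30 and -0.51, and Dnm1l and Ppm1f between 0.06 and 0.24. Around Vpreb2, Dgcr2, Dgcr14, Slc25a1, Dgcr6, Prodh and Zdhhc8 were at 0.12 to 0.52 in Ts1Rhr and 0.27 to 0.58 in HMGN1_OE. None of these neighbours was called in either mutant group, and each lay below the 3 surrogate light chain genes in both.

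**Figure D4:**
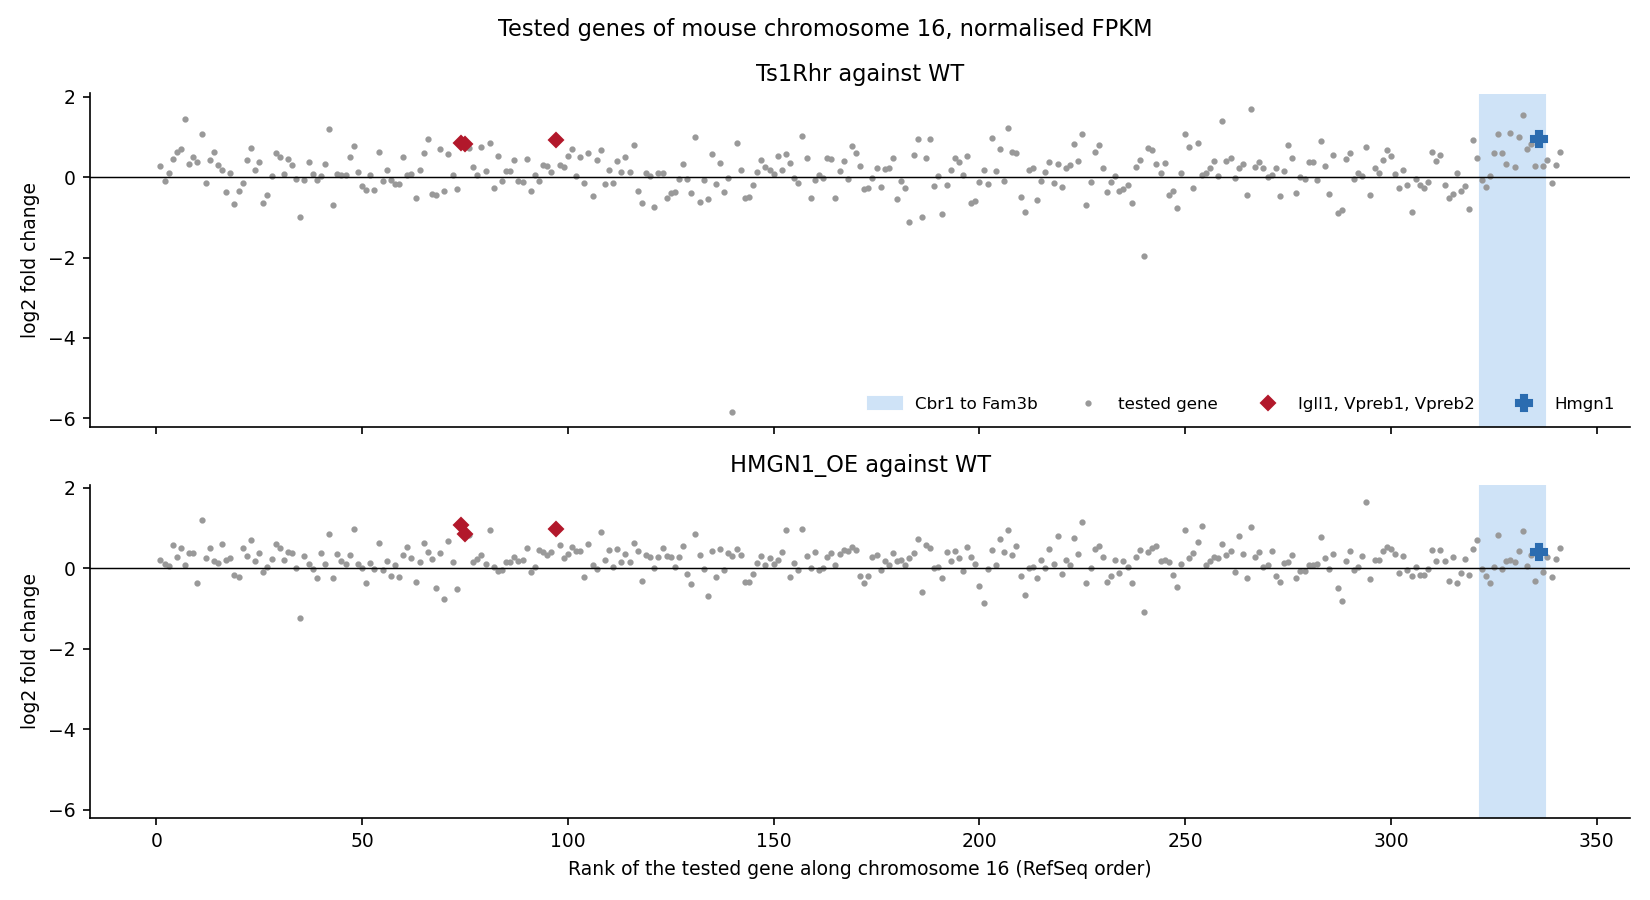
Log2 fold changes (normalised FPKM) of the 341 tested genes of chromosome 16 in RefSeq order, in Ts1Rhr and in HMGN1_OE against WT; diamonds are Igll1, Vpreb1 and Vpreb2, the cross is Hmgn1, and the shaded part runs from Cbr1 to Fam3b. The diamonds lie at 0.82 to 0.92 in Ts1Rhr and 0.86 to 1.08 in HMGN1_OE, far from the shaded part.

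Across the 9 libraries, on log2 raw FPKM, Vpreb1 varied most closely with Vpreb2 (Pearson r = 0.958, Spearman rho = 0.917, n = 9) and Igll1 (0.915 and 0.850), and less with Cd79a (0.645 and 0.500) and Vpreb3 (0.375 and 0.367). Vpreb3 varied with Cd79b (0.764 and 0.733), and Cd79a with Blnk (0.780 and 0.883). Lyn had a negative r with each of the other 9, from -0.807 with Vpreb2 to -0.0433 with Syk, where Spearman rho was 0.0167. These values describe libraries that share a group structure and, for Vpreb1 and Vpreb2, sequence.

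The 5 tested genes outside the list whose profile was most like the mean profile of Vpreb1, Vpreb3, Igll1, Cd79a and Cd79b over the 9 libraries were Eme1 (r = 0.971), Stmn1 (0.970), Zfp821 (0.969), Slc1a5 (0.965) and Fzr1 (0.960). Stmn1, which encodes the microtubule-destabilising protein stathmin of dividing cells, stood at 286 ± 43.9 raw FPKM in WT, 434 ± 73.9 in HMGN1_OE and 344 ± 65.8 in Ts1Rhr. Slc1a5, a glutamine transporter gene, stood at 87.6 ± 31.8, 145 ± 34.5 and 131 ± 29.0 raw FPKM. Eme1 encodes a DNA repair nuclease subunit and Fzr1 an activator of the anaphase-promoting complex.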

How the data were processed

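Polyadenylated RNA of 9 libraries, 3 per group, was measured. The authors deposited 2 tables of FPKM with 1 column per library, raw and further normalised. Per the submitters' processing notes HISAT, Cufflinks 2.0.0 and build mm9 were used. Settings, annotation and the normalisation's method were not given in the sources used here. Medians of the raw libraries were nearly the same, so a shift of all genes cannot appear in raw FPKM.

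Of 23398 rows, 92 spike-ins and 27 rows with dates for symbols were left out. The 10878 genes whose raw FPKM averaged 1 or more were tested with limma 3.58.1 in R 4.3.3 (intensity trend, all 9 libraries in 1 fit, two-sided, Benjamini-Hochberg adjustment, threshold 0.05), as log2 of the normalised FPKM and log2(raw FPKM + 0.1). Fold changes on this scale understate low genes. The script was tested on simulated data. Levels relative to 4 B lineage genes, a set chosen after seeing the data, were compared by an exact permutation test. The planned reference set and some single genes are not reported here.

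Named genes are the 10 members in all libraries. From the pathway list, named genes are those called and, per part, the 2 with the largest absolute log2 fold change in Ts1Rhr on normalised FPKM. Genes most alike are the 5 with the highest r. Other genes (Rag1, markers and neighbours) give context. Members and lists were chosen with earlier results of these data known. Symbols were matched to RefSeq for 10816 of the 10878 tested genes and for all 10 members. Alternatives were raw FPKM, other scalings, pseudocounts and filters, the variance model, 2 groups per fit, a replicate block and leaving out each library.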

Additional observations from a re-analysis of the deposited data

How the results depend on the processing

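The count of 0 members called on normalised FPKM held in all 3 comparisons without the mean filter, with a minimum of 5 FPKM, without the intensity trend, with only the 2 groups compared, with the replicate block and without any 1 library. In Ts1Rhr against WT, 3 members were called on raw FPKM, with equal library medians and with a pseudocount of 1 on raw FPKM, and 0 with 1 spike-in factor per library or with the replicate block on raw FPKM. Leaving out each library in turn gave 0 to 3 called on raw FPKM. The cause was not tested. Equal replicate numbers showed no sign of pairing the samples, with correlations of their deviations between -0.133 and 0.156. Such values cannot exclude a shared litter, batch or day, and the labels name none. The paired fit is given only here.

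Surrogate light chain genes were above WT in both mutant groups under every setting run. Small differences changed sign. On raw FPKM, with a pseudocount of 1 and with the replicate block on it, Vpreb3 in Ts1Rhr against WT was 0.0064, and -0.018 with 1 spike-in factor and -0.0013 with equal medians. Ts1Rhr against HMGN1_OE was 0.24 (log2) for Vpreb1, 0.19 for Vpreb2, 0.0058 for Igll1, 0.11 for Btk and 0.052 for Lyn on raw FPKM and with the replicate block on it. These were 0.24, 0.19, 0.0048, 0.11 and 0.051 with equal medians and 0.24, 0.19, 0.0057, 0.11 and 0.052 with a pseudocount of 1. With 1 spike-in factor they were 0.079, 0.026, -0.15, -0.049 and -0.11.

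Without 1 library, Ts1Rhr against WT ranged from -0.1032 to 0.2878 for Cd79a, -0.5072 to 0.1507 for Cd79b and -0.0827 to 0.2341 for Blnk, and on raw FPKM from -0.1368 to 0.1668 for Vpreb3, -0.2798 to 0.2398 for Cd79b and -0.0988 to 0.0009 for Syk. HMGN1_OE against WT ranged from -0.2241 to 0.0946 for Lyn, and on raw FPKM from -0.045 to 0.0801 for Syk and -0.0839 to 0.1728 for Btk. Ts1Rhr against HMGN1_OE ranged from -0.2291 to 0.1254 for Vpreb1, -0.2577 to 0.2301 for Vpreb2, -0.2928 to 0.1024 for Btk and -0.2971 to 0.0051 for Lyn. On raw FPKM it ranged from -0.0235 to 0.4917 for Vpreb2, -0.1134 to 0.154 for Igll1, -0.1174 to 0.0077 for Syk, -0.0135 to 0.2433 for Btk and -0.0684 to 0.1193 for Lyn.

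Relative to the 4 reference genes, Ts1Rhr against HMGN1_OE was 0.0167 for Vpreb1 on raw FPKM. Without 1 library it ranged from -0.2445 to 0.1649 for Vpreb1, -0.2731 to 0.169 for Vpreb2 and -0.3082 to 0.0824 for Btk. HMGN1_OE against WT ranged from -0.0334 to 0.6134 for Vpreb3, -0.0119 to 0.3671 for Cd79b, -0.0666 to 0.2461 for Blnk and -0.3601 to 0.0305 for Btk. Depth is unknown and was not used to weigh any value.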
